A study of Mus musculus with 18 samples.

Results

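The 9 genes Clec7a, Clec4n, Clec4d, Clec4e, Clec5a, Clec4a2, Clec12a, Clec4a1 and Clec4a3, which encode C-type lectin receptors of myeloid cells, were picked by gene symbol from count tables of 25124 genes. All 9 were present in the tables of the 3 fat depots, which were the inguinal (iWAT) and the epididymal (eWAT) white fat and the brown fat (BAT). Poly(A) RNA was sequenced from WT mice and from mice with a global knockout of caspase-6 (C6KO), a cysteine protease. Each combination of depot and genotype had 3 libraries, which gave 18. The mice were male and on the C57BL/6J background, WT and C6KO animals were littermates, and both genotypes ate a high-fat diet (HFD) with 60% fat, so that no library came from a chow-fed animal. Because the knockout is global, adipocytes and leukocytes both lack the gene. The labels call the libraries biological replicates and do not say which depots came from the same animal.

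C-type lectin receptors are surface proteins of macrophages, dendritic cells, monocytes and neutrophils that bind sugars and lipids of microbes and of dying cells. Activating members signal through an immunoreceptor tyrosine-based activation motif, either their own or that of the adaptors FcRγ (Fcer1g) and DAP12 (Tyrobp), to the kinase SYK and on to the CARD9 complex, while other members carry an inhibitory motif that recruits the phosphatases SHP-1 and SHP-2. Adipose tissue in obesity gathers macrophages, which are a main source of such transcripts in that tissue.

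Total counts were 16506034 to 19139694 in the white depots and 7803108 to 12428683 in BAT. Casp6, the targeted gene, had fewer reads in all 3 C6KO libraries than in any WT library of the depot, with log2 fold changes of -1.51 (iWAT), -1.85 (eWAT) and -1.5 (BAT), and 26 to 141 counts per C6KO library remained. The edgeR adjusted p for Casp6 was 0.0751, 0.0132 and 0.0671 in that order, so that even the targeted gene passed the test in eWAT alone, and the DESeq2 adjusted p was 3.19e-07, 1.28e-12 and 0.00318. Some libraries stood apart. C6KO library 3 of iWAT had a summed level of 8 macrophage markers of 1129 CPM (counts scaled to library size), against 387 and 425 in the other C6KO libraries and 1485 to 1672 in WT. WT library 2 of BAT had 25698 CPM of 4 skeletal muscle markers, against 32.9 to 5691 in the other BAT libraries. Counts of receptors and of listed signalling genes called in these depots are therefore also given without that library. The 5 brown adipocyte markers summed to 5751 to 13568 CPM in BAT and to 7.3 to 29.2 CPM in the white depots.

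All 9 genes lie on chromosome 6 in mm10. Clec4a1 (122921848 to 122934619), Clec4a3 (122952644 to 122969878), Clec4a2 (123123316 to 123143999), Clec4n (123229843 to 123247024), Clec4d (123262107 to 123275268) and Clec4e (123281789 to 123289871) lie close to each other in the Dectin-2 gene cluster. Clec12a (129350244 to 129365303) and Clec7a (129461591 to 129472785) belong to a second lectin cluster, and Clec5a (40574898 to 40585805) lies apart. These spans are those of the transcript to which reads were assigned in eWAT. For Clec5a the transcript listed in iWAT, and for Clec7a the transcript listed in BAT, differ from it slightly in length. Sharing of sequence was looked up in the GENCODE M21 transcripts matched to the listed ones, which can differ from them in length. Of their 50-base stretches, 15% of 1212 for Clec4a2 and 0.932% of 1180 for Clec4n also occur in transcripts of other genes, and none of those of the other 7 do. The match for Clec4a2 is shorter than its listed transcript of 2544 bases, so that its share covers a part only.

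In WT mice the receptors differed in level by over an order of magnitude, and eWAT was the depot with the highest mean for 8 of the 9. Levels between genes are compared here as CPM per kilobase of the listed transcript. Clec12a, an inhibitory receptor (MICL) for uric acid crystals, led in every depot, with 22.0 ± 2.11 in iWAT, 115 ± 25.2 in eWAT and 10.8 ± 4.65 in BAT (mean ± SD, n = 3). Clec7a, which encodes the beta-glucan receptor Dectin-1, followed in the white depots with 15.3 ± 3.17 in iWAT and 77.7 ± 20.9 in eWAT, and had 6.89 ± 1.99 in BAT. In eWAT the libraries of Clec12a and Clec7a overlapped. Next came the DCIR family, named for the dendritic cell immunoreceptor, at 43.7 ± 13.8 for Clec4a3, 41.6 ± 17.6 for Clec4a1 and 32.5 ± 5.49 for Clec4a2. These 3 overlapped with each other, and the highest library of Clec4a1 reached the lowest of Clec7a. Clec4d (MCL, a receptor for mycobacterial glycolipid) stood below them at 12.2 ± 1.5 and above Clec4n (Dectin-2, which binds mannans), at 2.26 ± 1.08. Clec5a, which signals through DAP12, had 1.07 ± 0.523, and Clec4e, which encodes Mincle, had 0.917 ± 1.09. The libraries of Clec4n, Clec5a and Clec4e overlapped between neighbours. In BAT the ranges overlapped between neighbours from Clec12a down to Clec4d, at 1.93 ± 0.522, and only Clec5a (0.38 ± 0.155) and Clec4e (0.0928 ± 0.0214) were set apart.

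**Figure D1:**
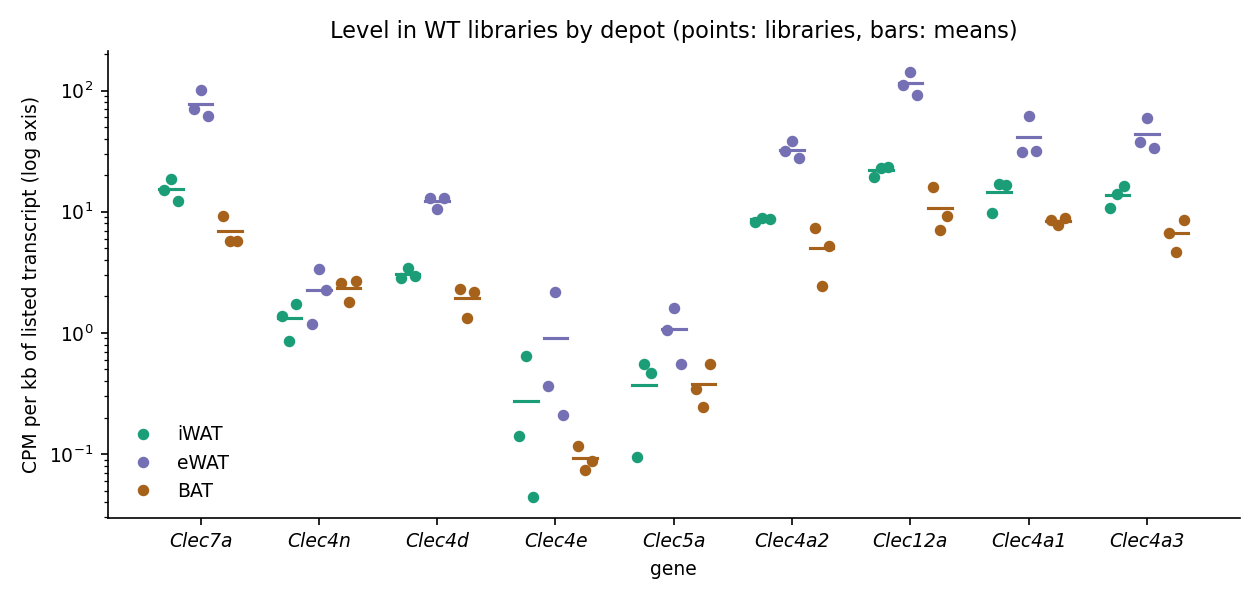
Level of each receptor in the WT libraries, as CPM per kilobase of the listed transcript on a log axis, for iWAT, eWAT and BAT. Points are libraries and bars are means of 3 libraries. The eWAT points of Clec12a, Clec7a, Clec4d and the DCIR family genes lie above all their iWAT and BAT points, and those of Clec4n, Clec4e and Clec5a do not.

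Whether the receptors' levels differ between depots was tested in WT libraries within 1 fit of all 18 libraries, over 15866 genes, where a gene was called at a Benjamini-Hochberg adjusted p under 0.05 and a fold change of at least 1.5. Between eWAT and iWAT, 6 of 9 receptors were called higher in eWAT, against 12.8% of all genes tested. CPM of Clec12a was 43.2, 51.3 and 51.4 for iWAT and 244, 315 and 205 for eWAT. CPM of Clec7a was 34.2, 42.3 and 27.9 for iWAT and 159.9, 231 and 140.3 for eWAT. Every eWAT library thus held several times the level of every iWAT library for both genes. The log2 difference was 2.39 (SE 0.58, edgeR adjusted p = 0.00674) for Clec12a and 2.35 (SE 0.54, edgeR adjusted p = 0.00456) for Clec7a. Clec4d, Clec4a2, Clec4a3 and Clec4a1 rose by 1.98, 1.91, 1.68 and 1.53 on the same scale. Clec4e, Clec5a and Clec4n did not pass, with log2 differences of 1.73 (SE 0.96), 1.55 (SE 0.67) and 0.77 (SE 0.48).

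Between BAT and iWAT, 1 of 9 receptors was called lower in BAT, against 18.7% of all genes. That gene was Clec4a3, a DCIR family receptor, with 13.8, 18.1 and 21.1 CPM in iWAT, 8.62, 5.98 and 11.1 CPM in BAT and a log2 difference of -1.05 (SE 0.34, edgeR adjusted p = 0.0188). Its highest BAT library lay below its lowest iWAT library. When WT library 1 or 2 of BAT, or WT library 3 of iWAT, was left out, no receptor was called, and without WT library 1 of iWAT Clec4a1 was called as well. Over the 6 fits with 1 of these WT libraries left out, 2577 to 3125 of all genes were called lower in BAT. Against eWAT, 7 of 9 receptors were called lower in BAT, beside 23.6% of all genes, with log2 differences from -2.31 for Clec4a1 to -3.51 for Clec7a. Clec4n took another course. Its CPM was 1.72, 1.07 and 2.13 (iWAT), 1.46, 4.13 and 2.80 (eWAT) and 3.21, 2.24 and 3.30 (BAT), so that its BAT libraries were within or above the range of both white depots. Its log2 difference of BAT from eWAT was 0.06 (SE 0.48). For Clec5a the difference of BAT from eWAT was -1.5 (SE 0.69, edgeR adjusted p = 0.0734).

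The main question of the study design, what loss of caspase-6 does on an HFD, was addressed by comparing C6KO with WT in each depot. For every receptor tested and in every depot the estimate was lower in C6KO, but by the test used here only Clec7a in BAT passed. A filter on low counts left 8 receptors in iWAT, 9 in eWAT and 7 in BAT. Clec4e in iWAT and BAT, and Clec5a in BAT, did not pass it. The tested receptors had a median log2 fold change of -1.25 (iWAT), -0.76 (eWAT) and -1.68 (BAT), where all genes tested had medians of 0.03, -0.01 and -0.03. The 9 genes were measured in the same libraries, so that these estimates are not independent of each other. In bulk tissue, fewer cells of a type and less RNA per cell cannot be told apart.

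**Figure D2:**
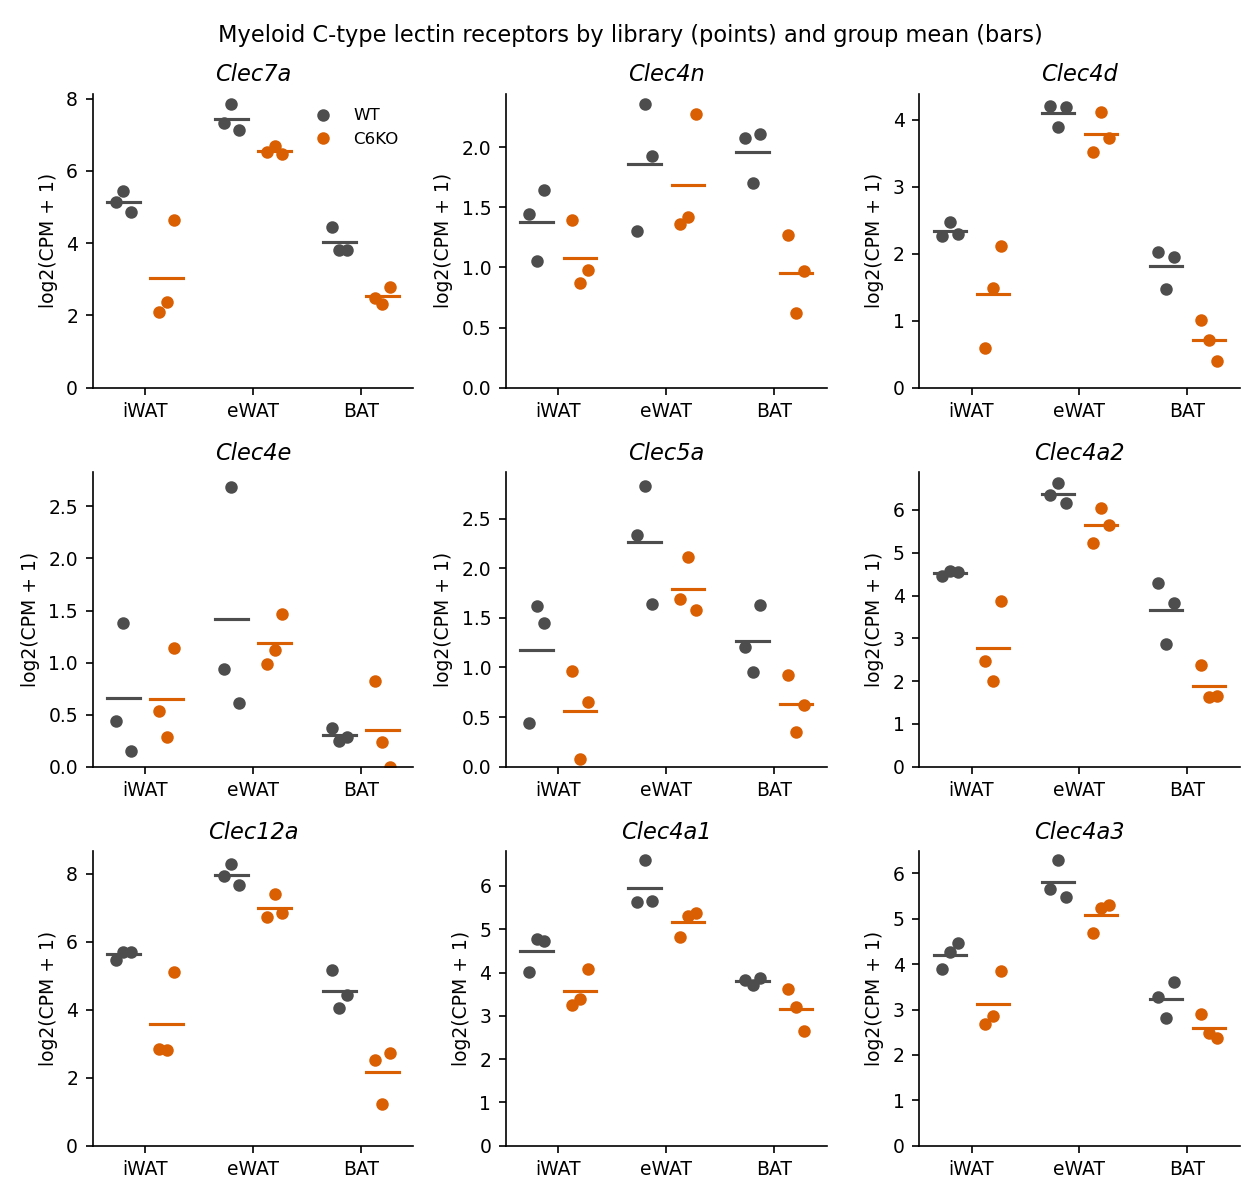
Level of each receptor in every library as log2(CPM + 1), by depot. Grey points are WT and orange points are C6KO libraries, and bars are group means of the plotted values. In iWAT 1 C6KO library lies near the WT libraries for Clec7a, Clec12a and Clec4a2, and in eWAT and BAT the genotypes do not overlap for these 3 genes.

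In eWAT, 0 of 9 receptors were called lower, against 0.208% of all genes. At an unadjusted p under 0.05 with the same fold change 5 of 9 were lower, against 2.79%, and for 5 of 9 every C6KO library lay below every WT library, against 11.6%. DESeq2, fitted to the same counts, called 5 of 9, against 1.22%. The 5 genes were the same by these 3 measures, namely Clec7a, Clec12a, Clec4a1, Clec4a2 and Clec4a3. For Clec7a the C6KO libraries had 90.7, 102 and 87.0 CPM, against 177 ± 47.5 in WT, and the group ranges did not overlap. It was 1.90-fold lower in C6KO (log2 -0.92, SE 0.18, edgeR adjusted p = 0.0546, DESeq2 adjusted p = 9.17e-05). Clec12a had 105, 168 and 115 CPM in C6KO, against 255 ± 55.8 in WT, without overlap. Its log2 fold change was -0.98 (SE 0.21, edgeR adjusted p = 0.0676, DESeq2 adjusted p = 0.000169).

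The DCIR family genes followed in eWAT. Clec4a2, which carries an inhibitory motif, had 80.1, 97.8 and 70.2 CPM in WT and 36.6, 65.2 and 49.5 in C6KO (log2 -0.71, SE 0.21, edgeR adjusted p = 0.135). Clec4a1 had 48.2, 95.9 and 49.2 CPM in WT and 27.1, 38.6 and 40.5 in C6KO (log2 -0.86, SE 0.31, edgeR adjusted p = 0.226). Clec4a3 had 49.1, 77.0 and 43.7 CPM in WT and 24.9, 36.8 and 38.5 in C6KO (log2 -0.76, SE 0.25, edgeR adjusted p = 0.180). WT library 2 was the highest for all 3 genes, and the genotypes did not overlap. Without that library the estimate moved to -0.45 for Clec4a1, to -0.46 for Clec4a3 and to -0.57 for Clec4a2. Of the activating receptors of the Dectin-2 cluster, Clec4d had 17.4, 13.9 and 17.3 CPM in WT and 10.4, 16.4 and 12.3 in C6KO, with overlap and a log2 fold change of -0.31 (SE 0.18). For Clec4n it was -0.24 (SE 0.48), for Clec5a -0.70 (SE 0.39) and for Clec4e -0.82 (SE 0.83). The mean of Clec4e in WT rested on library 2, at 5.46 CPM, while the others were at 0.92 and 0.53 and the C6KO libraries at 0.98 to 1.77. Without that library the estimate for Clec4e was 0.86, that for Clec4n 0.16 and that for Clec5a -0.28.

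**Figure D3:**
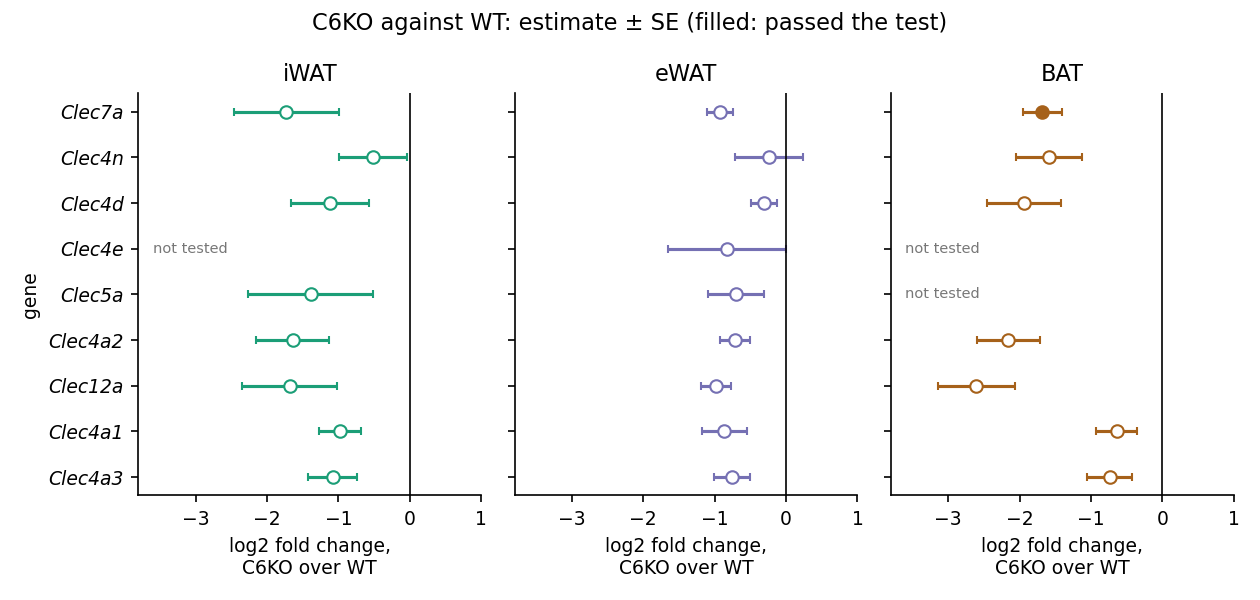
Log2 fold change of C6KO over WT for each receptor in iWAT, eWAT and BAT, with the standard error from edgeR (3 against 3 libraries). Filled points passed the test and open points did not. All estimates are below 0, from -0.24 to -2.60, and the filled point is Clec7a in BAT.

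In iWAT, 0 of 8 receptors tested were called lower, against 0.0206% of all genes. At an unadjusted p under 0.05 with the same fold change 4 of 8 were lower, against 6.72%, and for 5 of 8 every C6KO library lay below every WT library, against 12.3%. DESeq2 called 3, namely Clec4a1, Clec4a2 and Clec4a3, against 3.53%. The largest estimates were those of Clec7a and Clec12a. Clec7a had 34.2, 42.3 and 27.9 CPM in WT and 3.25, 4.17 and 24.1 in C6KO. Clec12a had 43.2, 51.3 and 51.4 CPM in WT and 6.22, 5.98 and 33.3 in C6KO. Clec4a2 had 21.1, 22.7 and 22.4 CPM in WT and 4.54, 3.02 and 13.6 in C6KO. For these 3 genes C6KO libraries 1 and 2 were at a small part of the WT level and library 3 lay between them and WT. The log2 fold changes were -1.73 (SE 0.73, edgeR adjusted p = 0.310) for Clec7a, -1.68 (SE 0.66, edgeR adjusted p = 0.277) for Clec12a and -1.64 (SE 0.51, edgeR adjusted p = 0.208) for Clec4a2.

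Without C6KO library 3, which also had the macrophage marker sum nearest to WT, 5 receptors were called lower in iWAT, against 6.43% of all genes. They were Clec12a (log2 -3.01, edgeR adjusted p = 7.94e-05), Clec7a (-3.24, edgeR adjusted p = 0.000175), Clec4a2 (-2.55, edgeR adjusted p = 0.000301), Clec4a3 (-1.62, edgeR adjusted p = 0.00419) and Clec4a1 (-1.32, edgeR adjusted p = 0.0161). That fit compares 2 C6KO with 3 WT libraries, and the library was set aside with its values known. With all libraries Clec4a1 was at 22.4 ± 6.24 CPM in WT and 11.3 ± 4.06 in C6KO, and Clec4a3 at 17.7 ± 3.67 and 8.35 ± 4.41 (n = 3). Clec4d was at 4.08 ± 0.387 and 1.88 ± 1.41 CPM, with a log2 fold change of -1.11 (SE 0.55). Without C6KO library 3 the value of Clec4d was -1.82 (edgeR adjusted p = 0.0602). Of the scarce receptors, Clec4n had a log2 fold change of -0.52 (SE 0.48) and Clec5a -1.39 (SE 0.88), and Clec4e, not tested, had 0.691 ± 0.801 CPM in WT and 0.624 ± 0.515 in C6KO.

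In BAT, 1 of 7 receptors tested was called lower, against 1.07% of all genes. At an unadjusted p under 0.05 with the same fold change 6 of 7 were lower, against 6.27%, and for 6 of 7 every C6KO library lay below every WT library, against 12.4%. DESeq2 called 3, namely Clec7a, Clec12a and Clec4a2, against 2.62%. The called gene was Clec7a, with 20.9, 13.1 and 13 CPM in WT and 4.60, 3.95 and 5.89 in C6KO. Its C6KO libraries lay close together and below every WT library. Clec7a fell by 1.68 on the log2 scale (SE 0.27, edgeR adjusted p = 0.0242), that is 3.21-fold. Without WT library 2 the value was -1.77 and 2 receptors were called, Clec7a and Clec4a2, against 1.05% of all genes. Leaving out any other single BAT library took Clec7a above the threshold, with edgeR adjusted p from 0.0526 to 0.122, as did the fit of all 18 libraries (edgeR adjusted p = 0.147).

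The inhibitory receptors had the largest estimates in BAT. Clec12a had 35.3, 15.5 and 20.6 CPM in WT and 4.73, 1.35 and 5.57 in C6KO, which was 6.08-fold lower (log2 -2.60, SE 0.54, edgeR adjusted p = 0.0892, DESeq2 adjusted p = 3.74e-06). Clec4a2 had 18.7, 6.26 and 13.2 CPM in WT and 4.22, 2.07 and 2.14 in C6KO (log2 -2.16, SE 0.44, edgeR adjusted p = 0.0583). For both genes the genotypes did not overlap, and WT library 2, the one with the muscle markers, was the lowest of the WT libraries. The activating receptors Clec4d and Clec4n rested on few reads. The counts of Clec4d were 21, 19 and 26 (WT) against 8, 7 and 3 (C6KO), a log2 fold change of -1.94 (SE 0.52, edgeR adjusted p = 0.127). Those of Clec4n were 22, 24 and 30 (WT) against 11, 6 and 9 (C6KO), a log2 fold change of -1.59 (SE 0.46, edgeR adjusted p = 0.157). Both were lower in all 3 C6KO libraries than in any WT library. Without WT library 2 the values were -2.82 for Clec12a, -2.13 for Clec4d and -1.73 for Clec4n. The DCIR family genes Clec4a1 and Clec4a3 had the smallest estimates, at -0.64 (SE 0.29) and -0.74 (SE 0.32). Clec5a, with 38 counts over the WT and 15 over the C6KO libraries, and Clec4e, with 6 and 8, were too scarce in BAT to be tested.

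A difference between depots in the C6KO effect was tested as an interaction, and no receptor was called. The share of all genes called was 0% for eWAT against iWAT, 0.183% for BAT against iWAT and 0.536% for BAT against eWAT. The 3 estimates farthest from 0 were all in BAT against eWAT. There the log2 fold change of Clec4d in BAT differed from that in eWAT by -1.66 (SE 0.67, unadjusted p = 0.0253, edgeR adjusted p = 0.354), that of Clec4a2 by -1.48 (SE 0.70, edgeR adjusted p = 0.451) and that of Clec12a by -1.65 (SE 0.86, edgeR adjusted p = 0.509). Standard errors of this size do not show that the depots responded alike. Without C6KO library 3 of iWAT, Clec7a was called in eWAT against iWAT, with the reduction in iWAT the larger. The 0% above is from all libraries. Over the 12 fits with 1 library left out, 0 to 228 of all genes were called higher in this interaction and 0 to 13 lower.

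Most markers of macrophages moved with the receptors. The 8 macrophage markers were all tested in each depot, and their median log2 fold change was -1.32 (iWAT), -0.58 (eWAT) and -1.08 (BAT). The genotypes did not overlap, with C6KO the lower, for 7 of 8 markers in each white depot and 6 of 8 in BAT. The highest value among the 8 markers was -0.29 (iWAT), 0.02 (eWAT) and 0.32 (BAT), so that not all 8 were lower in eWAT and BAT. In BAT 3 of them were called lower: Cd68 (-2.01), Lyz2 (-1.40) and Adgre1 (-1.79), which encode a lysosomal glycoprotein, lysozyme and F4/80. Csf1r, the receptor for the macrophage growth factor CSF-1, had -1.26, -0.55 and -0.78 in iWAT, eWAT and BAT and was not called. Their summed level was 1485 to 1672 CPM in WT and 387 to 1129 in C6KO in iWAT, 4909 to 6198 and 3116 to 4156 in eWAT, and 610 to 817 and 242 to 358 in BAT. The summed level of the 9 receptors was 134 to 169.9 CPM in WT and 31.4 to 107 in C6KO in iWAT, 531 to 846 and 299 to 433 in eWAT, and 58.1 to 105 and 21.8 to 35.4 in BAT. Neither sum overlapped between genotypes in any depot. Per 100 CPM of macrophage markers the receptors had 9.77 ± 1.05 CPM in WT and 8.35 ± 0.989 in C6KO in iWAT, 11.4 ± 1.70 and 8.83 ± 1.20 in BAT, both with overlap, and 12.2 ± 1.42 and 9.86 ± 0.486 in eWAT, without overlap. The part of the markers in the result was not tested.

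**Figure D4:**
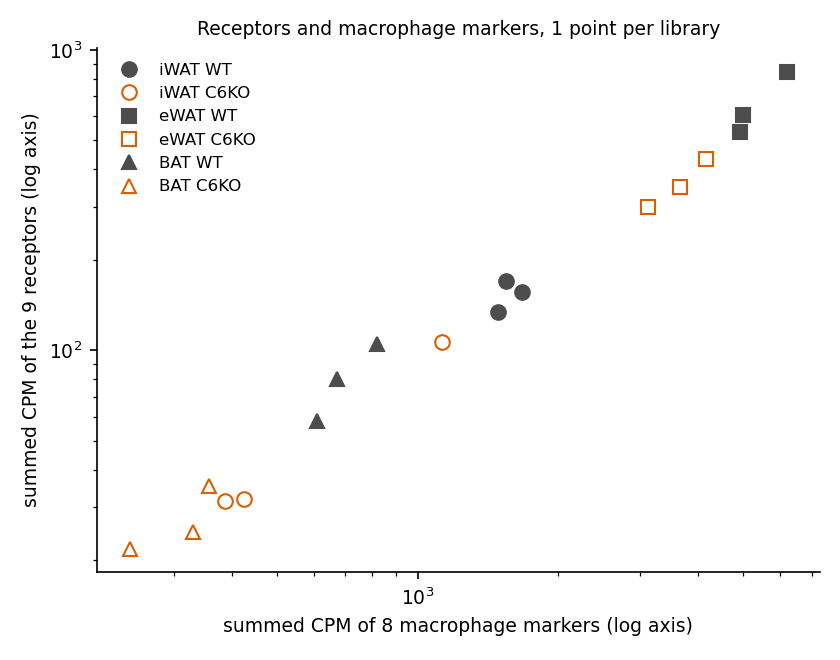
Summed CPM of the 9 receptors against summed CPM of 8 macrophage markers, both on log axes, with 1 point per library. Circles are iWAT, squares eWAT and triangles BAT, filled for WT and open for C6KO. The libraries line up from 21.8 CPM of receptors in a BAT C6KO library to 846 CPM in an eWAT WT library, and in each depot the C6KO points lie below and to the left of the WT points.

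Other cell types were checked in the same way. Ptprc, the pan-leukocyte gene CD45, was at 61.9 to 77.4 CPM in WT and 16.9 to 47.7 in C6KO in iWAT, 258 to 362 and 169 to 226 in eWAT, and 33.4 to 84.1 and 11.3 to 17.0 in BAT. The highest of these BAT values was that of WT library 2, which also had 33.6 CPM of T cell and 69.2 CPM of B cell markers, against at most 5.51 and 3.71 in the other BAT libraries. No T or B cell marker was called between genotypes in any depot, and their sums overlapped between genotypes. The 4 endothelial markers summed to 433 to 489 CPM in WT and 602 to 751 in C6KO in eWAT, to 754 to 991 and 1065 to 1079.9 in BAT, both without overlap, and overlapped in iWAT, and none was called. The 5 monocyte markers summed to 38.0 to 50.5 CPM in WT and 19.2 to 39.4 in C6KO in iWAT, with overlap. In eWAT the sums were 80.5 to 211 and 58.4 to 83.9, also with overlap. In BAT they were 24.8 to 39.6 and 13.3 to 20.5, without overlap, and no monocyte marker was called. Of 6 dendritic cell markers, 6 were tested in each white depot and 3 in BAT. Only Itgax (CD11c), which macrophages of obese fat express as well, was called, in BAT (-3.17). The 3 tested there had a median of 0.28 and a highest value of 0.34. The dendritic cell sums were 106 to 113 CPM in WT and 27.5 to 61.1 in C6KO in iWAT. They were 413 to 499 and 276 to 370 in eWAT, and 31.6 to 42.8 and 15.2 to 22.0 in BAT, without overlap in any depot. Of 8 neutrophil markers 3 were tested in each depot and none was called, their sum was at most 35.1 CPM, and of the defining genes Camp, Ngp and Ltf none exceeded 0.885 CPM in a library. In iWAT the neutrophil sum was 14.5 to 15.9 CPM in WT and 4.34 to 14.4 in C6KO, without overlap. It overlapped in eWAT and BAT. The 5 adipocyte markers went the other way in the white depots, where their sum was 20711 to 23428 CPM in WT and 28799 to 29898 in C6KO in iWAT and 7854 to 9458 and 10931 to 13930 in eWAT, with Plin1 and Lipe called higher in eWAT. In BAT the adipocyte sums overlapped. The 4 fibroblast markers had median log2 fold changes of -0.67, -0.28 and -0.76, and Lum was called lower in BAT. Their sum was 2070 to 2152 CPM in WT and 953 to 1500 in C6KO in iWAT. In eWAT it was 3546 to 4149 and 2661 to 3406, so that C6KO was lower without overlap in both white depots. In BAT the fibroblast sums overlapped. The part of these cell types in the receptor result was not tested.

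Relative to the macrophage markers the receptors did not stand alike. Clec12a, taken as its log2 CPM minus the mean log2 CPM of the 8 markers, was at -0.55, -1.37 and -1.15 in the WT and -2.30, -3.76 and -2.16 in the C6KO libraries of BAT. Clec7a was at -1.31, -1.62 and -1.82 in WT and -2.34, -2.25 and -2.08 in C6KO of BAT. Neither gene overlapped between genotypes there, so that in BAT both were lower relative to the mean of the markers in C6KO. The single markers had log2 fold changes from -2.01 to 0.32 in BAT. Clec7a, at -1.68, lay within that range, and Clec12a, at -2.60, lay below it. In the white depots Clec7a overlapped, at -2.13 to -1.34 in WT and -3.18 to -1.71 in C6KO in iWAT. In eWAT it was at -1.29 to -0.86 in WT and -1.59 to -1.21 in C6KO. Clec4a1, in contrast, was at -1.97, -1.73 and -1.73 in WT and -1.07, -1.20 and -2.24 in C6KO of BAT, and Clec4a3 overlapped as well. In eWAT Clec12a was at -0.50, -0.41 and -0.74 in WT and -1.01, -0.79 and -1.20 in C6KO, without overlap, and in iWAT it was at -1.25 in C6KO library 3, within the WT range of -1.25 to -1.07. Clec4a2 did not overlap in iWAT, at -2.45 to -2.24 in WT and -3.37 to -2.53 in C6KO, and overlapped in eWAT and BAT. Clec4a1, Clec4a3, Clec4d, Clec4e, Clec4n and Clec5a overlapped in every depot. No share over all genes was taken on this measure.

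**Figure D5:**
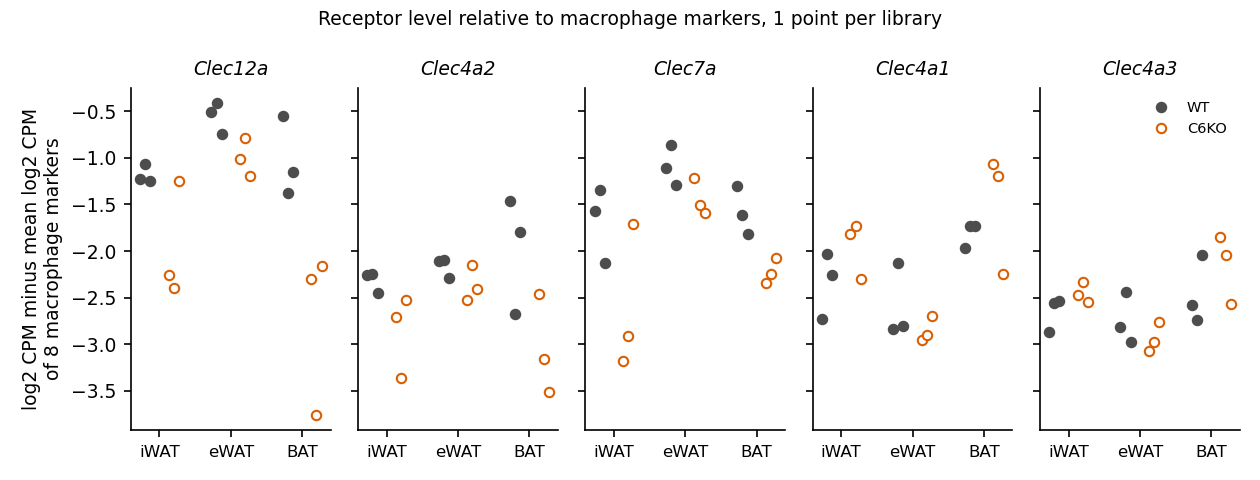
Level of 5 receptors relative to macrophage markers (log2 CPM minus the mean log2 CPM of 8 markers), by depot, with 1 point per library. Filled points are WT and open points C6KO. In BAT the C6KO points of Clec12a, from -3.76 to -2.16, lie below all WT points, and those of Clec4a1 and Clec4a3 lie on both sides of or among theirs.

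The same contrast within the gene set used no marker. In BAT the log2 ratio of Clec12a to Clec4a1 was 1.42, 0.36 and 0.58 in WT and -1.24, -2.56 and 0.08 in C6KO. The ratio of Clec12a to Clec4a3 was 2.03, 1.37 and 0.88 in WT and -0.46, -1.72 and 0.41 in C6KO. In eWAT the C6KO libraries of the first ratio, at 1.95, 2.12 and 1.5, overlapped with WT, at 2.34, 1.71 and 2.06. The second ratio overlapped there as well. In iWAT C6KO library 3 lay within the WT range of both ratios, at 1.05 and 1.31. The ratio of Clec7a to Clec4a1 overlapped in every depot. In BAT it was 0.67, 0.12 and -0.08 in WT and -1.28, -1.05 and 0.16 in C6KO. The ratio of Clec4a2 to Clec4a3 was lower in C6KO without overlap in iWAT and BAT, and overlapped in eWAT. These pairs were chosen after their values were seen, and with 3 against 3 libraries an exact permutation test of a single ratio cannot go below a two-sided p of 0.1, so that no test is given.

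Across all 18 libraries the receptors shared one pattern with macrophage genes. Of 13090 genes with at least 1 CPM on average that were tested in every depot, the genes most like the mean of the 9 receptors included Lyz2 (Pearson r = 0.987), Cxcl16 (0.982), Fcgr3 (0.981), C1qc (0.981), Cybb (0.980), Mrc1 (0.980), Bcl2a1b (0.980), C1qb (0.980) and Plek (0.979). These values describe 18 libraries that differ in depot and genotype at once, and the points share those differences. By single receptor, r with the mean of the macrophage markers was 0.982 for Clec4a3, 0.979 for Clec7a, 0.973 for Clec12a and 0.970 for Clec4a2. It was 0.741 for Clec5a, 0.667 for Clec4e and 0.513 for Clec4n, the scarcest receptors in iWAT and eWAT. Clec4d, with r = 0.955, had fewer WT counts in BAT (66) than Clec4n (76). The cause of the lower values was not tested. Among the receptors themselves Clec4a1 was closest to its neighbour Clec4a3 (r = 0.983), and Clec12a to Clec4a2 (r = 0.983).

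Because most receptors varied together across libraries, the 250 bases before their transcription starts were read from RefSeq (GRCm38.p6, the same assembly as mm10), which held 8 of the 9 genes. The window of Clec4a2 lies before a start, at 123122690, that is not the start of its listed transcript. Those of Clec4a2, Clec4a3, Clec5a and Clec12a overlap exons of their own gene. The windows that overlap no annotated exon, those of Clec7a, Clec4a1, Clec4d and Clec4e, are shown 5′ to 3′ on the strand of the gene. Capitals mark the letters GAGGAA, a core of the site of the myeloid transcription factor PU.1, or TTCCTC, the same site on the other strand.
Clec7a (chr6:129472786-129473035, minus strand): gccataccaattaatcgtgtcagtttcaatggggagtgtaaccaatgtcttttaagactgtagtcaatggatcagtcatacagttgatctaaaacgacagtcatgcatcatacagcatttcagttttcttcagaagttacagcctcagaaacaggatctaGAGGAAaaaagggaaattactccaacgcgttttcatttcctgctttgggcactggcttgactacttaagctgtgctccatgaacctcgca
Clec4a1 (chr6:122921598-122921847, plus strand): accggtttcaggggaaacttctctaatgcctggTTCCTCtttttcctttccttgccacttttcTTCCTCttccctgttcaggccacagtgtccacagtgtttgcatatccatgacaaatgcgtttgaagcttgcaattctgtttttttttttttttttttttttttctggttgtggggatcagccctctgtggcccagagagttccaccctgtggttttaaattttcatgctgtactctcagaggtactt
Clec4d (chr6:123261857-123262106, plus strand): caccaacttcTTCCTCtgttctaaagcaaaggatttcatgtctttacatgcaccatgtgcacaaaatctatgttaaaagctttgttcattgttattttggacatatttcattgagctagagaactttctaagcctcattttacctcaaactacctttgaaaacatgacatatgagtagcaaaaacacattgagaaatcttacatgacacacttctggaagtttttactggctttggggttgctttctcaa
Clec4e (chr6:123289872-123290121, minus strand): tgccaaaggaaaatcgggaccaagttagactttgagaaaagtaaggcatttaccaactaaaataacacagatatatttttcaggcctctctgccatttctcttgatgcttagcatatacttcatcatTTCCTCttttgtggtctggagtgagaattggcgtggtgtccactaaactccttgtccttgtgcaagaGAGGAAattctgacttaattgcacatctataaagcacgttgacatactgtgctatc
The letters GAGGAA occurred on either strand in 7 of the 8 receptor windows, all but that of Clec4a2, and in 23.25% of 32851 windows of all genes. This form was chosen for display after 15 letter forms, 5 of them variants of this site, had been searched, and it was the most frequent of them in these windows. Of the other 14, the longer form GAGGAAGT occurred in 0 of 8 windows and in 2.441% of all, GGAAGT in 2 and 19.74%, CATGTG (an E-box bound by MITF) in 4 and 12.25%, TTGCNNAA (C/EBP) in 2 and 9.564%, TATAAA in 3 and 12.37%, TGANTCA (AP-1) in 1 and 6.749%, and 1 of 2 NF-κB forms in 1 and 17.63%. The remaining forms occurred in no receptor window, namely AGAGGAAGT (0.7975% of all windows), AGGAAGT (7.686%), TTGCNNNAA (8.289%), TGACGTCA (1.546%), CACGTG (6.021%), the other NF-κB form (4.109%) and an IRF form (2.977%). All forms were searched on both strands, and the 5 variants of the PU.1 site overlap in part. A match describes the letters alone.

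Genes through which the receptors signal were followed as lists. Of 15 adaptor and kinase genes, 15 were tested in the white depots and 14 in BAT. Their medians on the log2 scale were -1.14 (iWAT), -0.45 (eWAT) and -1.06 (BAT). Tyrobp (DAP12) was called lower in BAT, where it had 43.1, 24.8 and 25.3 CPM in WT and 8.31, 8.36 and 9.97 in C6KO (log2 -1.79, SE 0.24, edgeR adjusted p = 0.011). Pik3ap1, an adaptor of phosphoinositide 3-kinase, was also called there (log2 -1.36, SE 0.26, edgeR adjusted p = 0.0468). Fcer1g had log2 fold changes of -1.28 (iWAT), -0.59 (eWAT) and -1.09 (BAT), and Syk had -1.0, -0.15 and -1.04, and neither was called. At most 1 of the 15 genes was called in BAT when any single BAT library was left out. Without C6KO library 3 of iWAT 10 of the 15 genes were called in that depot, where 6.43% of all genes were called lower.

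The 12 genes of the CARD9 complex and its transcription factors had medians of -0.23, -0.28 and -0.10, and none was called in any depot with all libraries. Rela and Nfkb1, which are among the most abundant of them, are used by many cell types and had log2 fold changes between -0.33 and 0.15. The 10 genes of phosphatases and other inhibitors of this signalling had medians of -0.93, -0.48 and -0.53 with none called. Without C6KO library 3 of iWAT, 3 genes of the CARD9 complex and 5 phosphatase genes were called in that depot. So were 2 response genes and 6 other C-type lectin genes, where 6.43% of all genes were called lower. Without WT library 2 of BAT, 1 phosphatase gene, 1 response gene and 2 other C-type lectin genes were called there. The share of all genes called lower was 1.05% in that fit. The listed genes were counted in either direction, and the shares count lower genes only. Ptpn11 (SHP-2) had 0.27, 0.53 and 0.15 in iWAT, eWAT and BAT, Inpp5k had 0.18, -0.13 and 0.01, and Ptprc had -1.31, -0.61 and -1.94. Of 17 response genes, which are cytokine and early genes induced downstream, 10, 14 and 6 were tested in the 3 depots. Ccl2, the monocyte chemoattractant MCP-1, was the one called, and it was higher in eWAT of C6KO mice, at 27.1, 29.4 and 31.0 CPM against 19.2, 17.1 and 16.6 in WT (log2 0.73, SE 0.12, edgeR adjusted p = 0.0432). That call was lost without any single eWAT library other than C6KO library 2. In BAT its log2 fold change was -2.70 (SE 0.65, edgeR adjusted p = 0.107). Egr2 had -1.30, -0.25 and -1.71 and Nos2 -0.52, 0.21 and -0.28, and neither was called.

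The 50 other C-type lectin genes in the tables, of which 34, 37 and 27 were tested, had medians of -0.30, -0.07 and -0.22. Cd72, an inhibitory receptor of B cells and macrophages, was called lower in eWAT (log2 -1.10, SE 0.15, edgeR adjusted p = 0.0342) and in BAT (log2 -1.29, SE 0.22, edgeR adjusted p = 0.0305). Mrc1, the macrophage mannose receptor, had -1.15, -0.50 and -0.96 in iWAT, eWAT and BAT. Cd93, which endothelial cells express, had -0.36, -0.08 and -0.31, and Mrc2, an endocytic collagen receptor of fibroblasts, had -0.35, 0.24 and -0.94. None of these 3 was called. The Cd72 call was lost in BAT without any single library other than WT library 2, and in eWAT without any WT library. Between WT depots, eWAT was higher than iWAT for 13 of 15 adaptor and kinase genes and 4 of 12 genes of the CARD9 complex, and lower for none of them. Of 10 phosphatase genes 5 were higher and 1 lower, of 14 response genes 6 were higher and 1 lower, and of 38 other C-type lectin genes 9 were higher and 5 lower, where 12.8% of all genes were higher.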

How the data were processed

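Poly(A) RNA of 18 libraries (3 fat depots, WT and C6KO, 3 libraries each) was sequenced. The authors aligned the reads to mm10 with STAR, and the deposited values are raw counts per gene, made with HOMER over the exons of 1 listed transcript per gene. Strand setting, annotation release and versions were not given in the sources used here. Library totals were 7803108 to 19139694 counts, and genes under about 10 reads per library were measured with low precision.

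Genes were tested within each depot with edgeR 4.0.16 (TMM scaling, filterByExpr, robust quasi-likelihood test, Benjamini-Hochberg adjustment), and called at an adjusted p under 0.05 and a fold change of at least 1.5. Depots and interactions came from 1 fit of all 18 libraries. CPM values are TMM-scaled over the 18 libraries, and log2 CPM used a prior count of 1. R 4.3.3, DESeq2 1.42.0, limma 3.58.1, Python 3.11.15, pandas 2.3.3 and matplotlib 3.10.9 were used, and the fits were tested on simulated data. The simulation gave all genes and depots the same spread between libraries. In the data the common coefficient of biological variation was 0.216 (iWAT), 0.191 (eWAT) and 0.32 (BAT). How well scarce receptors or changes smaller than the simulated ones are called was not tested.

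All 9 receptors are named. In each other list the 3 tested genes with the highest mean CPM and any called gene are named, and for likeness the 10 genes with the highest Pearson r. Some genes that this rule names are not reported here. The receptors and the lists were chosen with earlier results of these data known. The labels call the libraries biological replicates, and p-values measure the spread between these libraries. Alternatives were DESeq2, other scalings, other filters on low counts, no fold change minimum, all libraries in 1 fit, a replicate block and leaving out each library. Protein sequences were not used here.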

Additional observations from a re-analysis of the deposited data

Results flagged for a closer look

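The C6KO effect on Ccl2, a response gene downstream of the receptors, differed between depots by the interaction test. Its log2 fold change was 0.73 in eWAT and -2.70 in BAT, and the difference of BAT from eWAT in the fit of all 18 libraries was -3.46 (SE 0.62, edgeR adjusted p = 0.0186). Of all genes 0.536% were called in this interaction. Over the 12 fits with 1 library left out, 0 to 1 response genes were called, so that the call did not hold in every fit. In BAT, WT library 1 had 18.3 CPM of Ccl2 and the other WT libraries 4.49 and 5.62, against 0.719 to 2.30 in C6KO.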

How the results depend on the processing

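The number of receptors called lower in C6KO depended on the test. Against 0 in iWAT, 0 in eWAT and 1 in BAT, DESeq2 called 3, 5 and 3 (3.53%, 1.22% and 2.62% of all genes). Without a filter on low counts edgeR called 1 in eWAT (0.495% of all genes) and 2 in BAT (1%), with at least 10 counts in every library 2 in BAT (1.15%), and with all 18 libraries in 1 fit 2 in BAT (2.71%), which were Clec12a and Clec4a2, and not Clec7a. Leaving out 1 library gave 0 to 5 in iWAT (5 without C6KO library 3, with 6.43% of all genes), 0 to 2 in eWAT (2 without C6KO library 2, with 0.616%) and 0 to 2 in BAT, where Clec7a was lost without any library but WT library 2. With a replicate block 0, 3 and 3 were called, beside 0.372%, 0.779% and 0.743% of all genes, and the block changed no depot or interaction count. To look for pairing, the mean of each gene within its depot and genotype was subtracted first. After that, same-numbered WT and C6KO libraries of a depot correlated at -0.605 to 0.163. Same-numbered libraries of different depots within a genotype correlated at -0.111 to 0.329. The numbers were not taken to pair libraries, and these values do not settle which depots came from the same animal. Between depots in WT, leaving out 1 library gave 6 to 7 (eWAT over iWAT), 0 to 2 (BAT below iWAT, where total counts and DESeq2 each gave 2) and 6 to 7 (BAT below eWAT). With 1 library left out, 1643 to 1810, 2577 to 3125 and 3509 to 4010 of all genes were called in these directions. The counts of all genes by total counts and DESeq2 are not given here. Leaving out 1 library, the interaction of eWAT with iWAT gave 0 to 1 receptors, and the others 0.

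Directions turned mostly for scarce receptors, and in an interaction also for Clec4a2 and Clec12a. Without WT library 2 of eWAT, Clec4e in eWAT was at 0.86 (lowest -1.29 without WT library 3) and Clec4n at 0.16 (lowest -0.79 without C6KO library 3). Clec5a in BAT against iWAT was at -0.086 by total counts, -0.40 without iWAT WT library 1 and -0.33 without BAT WT library 3 (highest 0.45). Clec4n in BAT against eWAT was at -0.24 by total counts, -0.25 without eWAT WT library 1, -0.02 without BAT WT library 1 and -0.05 without BAT WT library 3 (highest 0.45). Without C6KO library 3 of iWAT the interaction of BAT with iWAT was 0.35 for Clec4a2 (lowest -0.93) and 0.36 for Clec12a (lowest -1.34). The cause was not tested. Of the values for single genes, 701 kept direction and side of the threshold, 33 newly passed it, 13 lost it and 11 turned. Over all genes, 3, 31 and 145 were called lower in iWAT, eWAT and BAT, against 3 to 951, 2 to 93 and 24 to 145 with 1 library left out and 505, 189 and 389 by DESeq2. Those called higher were 1, 80 and 23, against 0 to 327, 0 to 254 and 2 to 33 with 1 library left out. Clec4e, Clec4n and Clec5a rest on the fewest counts in iWAT and eWAT.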
